A study of Drosophila melanogaster with 35 samples.

Results

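The genes described here encode the subunits of the Drosophila proteasome and their testis-type paralogues, read in Kc167, an embryonic line of Drosophila melanogaster cells. Members were all genes whose symbol is Prosalpha, Prosbeta, Rpn or Rpt followed by a digit, taken from array rows that name 1 gene. There were 35 such genes on 37 rows, of 7258 genes with a single symbol. They were divided by symbol into 11 paralogues, which carry R or T after the subunit number, and 24 core genes. Prosalpha4T1 ends in T1 and was counted with the paralogues. By role, the paralogues comprise 3 alpha-ring, 4 beta-ring, 2 regulatory ATPase and 2 regulatory non-ATPase genes, and the core genes 7, 5, 3 and 9 of these classes. The rule is by symbol alone, but it was set with earlier results of these data known. A further row that names several genes, a proteasome symbol among them, was left out.

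The proteasome degrades proteins that carry ubiquitin. Its 20S particle is a barrel of stacked alpha and beta rings, with the peptidase sites on beta subunits, and its regulatory particle binds ubiquitin, unfolds the substrate with the Rpt ATPases and holds the Rpn lid and base subunits. Drosophila has duplicate genes for several of these subunits, many of them known for expression in the male germline, where alternative proteasomes form during sperm development. DamID marks the DNA that a protein touches in living cells: the protein is joined to Dam, a bacterial enzyme that methylates adenine, and the methylated fragments are compared with those of cells given Dam alone. Lam is the B-type lamin of the nuclear lamina, a layer under the nuclear membrane that is known to touch many silent genes.

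The series holds 35 two-colour cDNA arrays in 13 groups. All DamID cells were Kc167 cells transfected with a pNDamMyc plasmid, which carried full-length Lam, a Lam without its C-terminal CaaX membrane-targeting signal (Lam delta CaaX), or Dam alone. Untreated cells gave 4 arrays of Dam-Lam over Dam and 4 of Dam-Lam delta CaaX over Dam. The trichostatin A (TSA, a histone deacetylase inhibitor) experiment used 100 nM for 24 h. It has 2 arrays each of Dam-Lam with over without TSA, Dam-Lam delta CaaX with over without TSA, Dam with over without TSA, Dam-Lam over Dam with TSA in both, and Dam-Lam delta CaaX over Dam with TSA in both. The ecdysone (the insect moulting hormone) experiment used 1 µM for 24 h, with 3 arrays of Dam-Lam over Dam with ecdysone, 2 of Dam-Lam with over without it, 2 of Dam with over without it, and 3 of Dam-Lam over Dam without it. Untransfected Kc167 cells gave 5 arrays of mRNA with over without ecdysone, at a dose the labels do not give, and 2 of untreated mRNA over genomic DNA. All of it is 1 cell line, and the plasmids were introduced by transfection.

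Each array held 7542 to 8485 rows with a value. Arrays of 1 group correlated at 0.51 to 0.77 for Dam-Lam over Dam and at 0.42 to 0.69 for Dam-Lam delta CaaX over Dam. Whether the arrays within a group stem from different cultures is not stated, so p-values measure the spread between arrays, which may be technical. A positive ratio is taken as channel 1 over channel 2 of the labels. Some arrays stand apart. In the ecdysone experiment, the 6 arrays that set Dam-Lam over Dam oppose each other in sign, and 1 mRNA array correlates at -0.14 with another. The 2 arrays of untreated mRNA carry no test. Kc167 is known as a line of blood-cell character, and of 13 measured hemocyte markers 9 were above the median of all genes on the mRNA arrays and 4 above the 90th percentile, Hml, LanA, LanB1 and SPARC. NimC1 lay at the 3.84th percentile. Of 28 measured male germline markers, 20 were below the 50th percentile and 0 above the 90th.

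Transcript levels are given first, since they show which of these genes the cells use. In untreated cells every paralogue had less transcript signal than every measured core gene. The ratio of mRNA to genomic DNA corrects for how well each spot hybridises, so different genes can be set side by side on it, and a value of 0 is the median of all genes on an array. Its scale is log2. The median of the 11 paralogues was -1.29, with a range of -2.08 to 0.83, and 9 of them lay below the 50th percentile. The median of the 20 measured core genes was 2.81, with a range of 1.66 to 3.65. All 20 lay above the array median and 15 above the 90th percentile of 8074 genes and unnamed units. These ranges are of means of the 2 arrays, and on the means the gap between the highest paralogue and the lowest core gene was 0.83. The 2 arrays gave medians of -1.09 and -1.48 for the paralogues and 2.74 and 2.87 for the core genes. In a bulk sample, fewer cells with a transcript and less of it per cell cannot be told apart.

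Among the core genes, those of the 20S rings had more signal than those of the regulatory particle. As means of the 2 arrays, the 9 ring genes ranged from 2.89 to 3.65 and the 11 regulatory genes from 1.66 to 3.02. On these means, 8 of the ring genes were above every regulatory gene. By the mean of the 2 arrays the highest was Prosbeta4, a beta-ring subunit, at 3.49 and 3.81, and next came Prosbeta5, the chymotrypsin-like peptidase, at 3.48 and 3.60. The order among the highest ring genes differed between the arrays. The lowest was Rpn1, a scaffold subunit of the regulatory base, at 1.36 and 1.97. The arrays differed by at most 0.79 for any core gene, and that gene was Prosalpha7. Prosalpha1, Prosalpha2, Prosbeta2 and Rpt5 had no value on these arrays.

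A pair of paralogues stood above the other 9. Rpt3R, a paralogue of the Rpt3 ATPase, was at 0.79 and 0.88, the 69.0th percentile. Prosalpha6T, a paralogue of the alpha-ring subunit Prosalpha6, was at 0.07 and 0.51, the 56.8th percentile. The lowest was Rpn13R, a paralogue of the ubiquitin receptor Rpn13, at -1.82 and -2.35, the 6.24th percentile. The least reproducible was Prosbeta4R2 at -0.62 and -1.96, a gap of 1.34, so the order within the low paralogues is not firm. For 9 paralogues the core gene is on the same arrays, and all 9 were lower than it on both. The smallest mean difference was that of Rpt3R, -1.47 on the log2 scale. The ratios do not show whether the spots of the low paralogues were above background, so no fold is given for them.

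**Figure D1:**
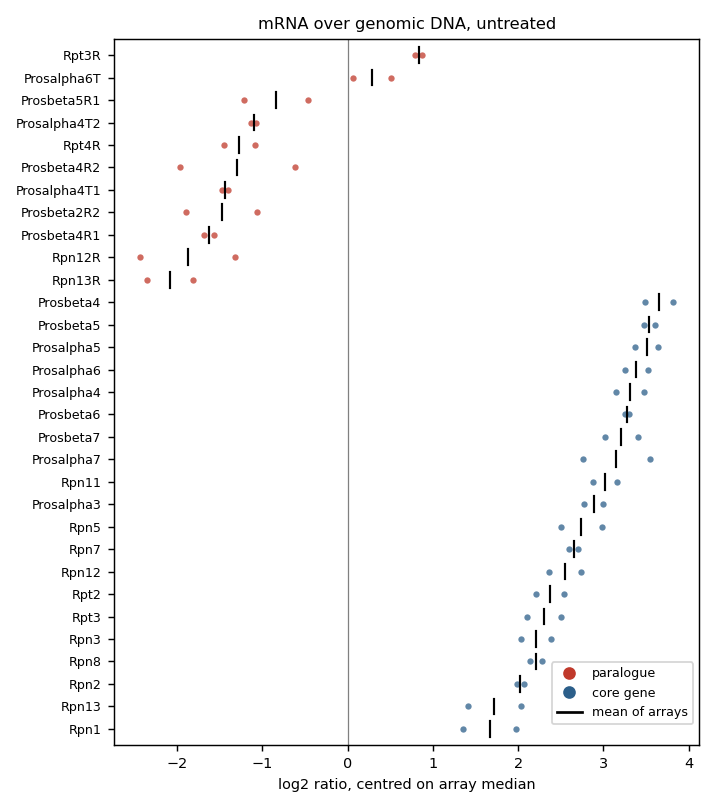
Transcript level of each member in untreated cells as the log2 ratio of mRNA to genomic DNA (horizontal axis, centred on the array median), 1 dot per array (2 arrays) and a bar at their mean. The means of all 11 paralogues (red, top) lie at or below 0.83 and those of all 20 measured core genes (blue) at or above 1.66. Single dots pass these limits, such as Rpt3R at 0.88 and Rpn1 at 1.36.

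The comparison of Dam-Lam with Dam asks which of these genes touch the lamina in untreated cells. Most paralogues were higher with Dam-Lam than with Dam alone, and no core gene was. Of the 11 paralogues, 7 were called higher (all units: 20.3% higher) and 0 lower by limma (Benjamini-Hochberg adjusted p below 0.05, 8062 tested units). Of 20 tested core genes, 0 were called higher and 5 lower (all units: 14.9% lower). The median log2 ratio was 0.73 over the paralogues, -0.35 over the core genes and -0.02 over all units. On each array the paralogue median was above the core median, by 0.92, 1.54, 1.31 and 1.21.

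Among the 20S paralogues, the highest pair stems from Prosbeta4, and the genes lie side by side in the genome with 1 gene, Or23a, between them in the Release 6 gene order. Prosbeta4R2 had log2 ratios of 1.93, 1.57, 1.97 and 0.90 on the 4 arrays, a fitted value of 1.59 ± 0.20 (standard error, as in all fitted values here) and an adjusted p of 0.00378. Prosbeta4R1 had 0.74, 1.31, 1.25 and 2.02, a fitted value of 1.33 ± 0.18 and an adjusted p of 0.00468. Both were above 0 on every array, while Prosbeta4 itself had -0.30, 0.07, -0.47 and -0.09. The paralogue values and those of the core gene do not overlap. Prosbeta5R1 read 0.43, 1.43, 0.10 and 0.96 and was called at 0.73 ± 0.22, against -0.37, -0.25, -0.13 and -0.32 for Prosbeta5. Prosbeta2R2, a paralogue of the trypsin-like peptidase Prosbeta2, went the other way, with -0.27, -0.53 and -0.43 on the 3 arrays that measured it, and was not called (-0.41 ± 0.18).

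For the alpha ring, Prosalpha4T2 had 1.71, 1.21, 1.16 and 0.61 and was called higher at 1.17 ± 0.16 (adjusted p = 0.00472). Prosalpha4T1 had 0.21, 0.71, 0.48 and 1.12 and was called at 0.63 ± 0.17 (adjusted p = 0.031). Their shared core gene Prosalpha4 had -0.20, 0.23, -0.26 and 0.09, which overlaps the values of Prosalpha4T1 by a small margin and those of Prosalpha4T2 not at all. Prosalpha6T had 0.54, 0.49, 0.58 and -0.17, and was not called (0.36 ± 0.17).

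In the regulatory particle, Rpn13R was above 1 on all 4 arrays, with 1.26, 1.55, 1.31 and 1.18, and was called at 1.32 ± 0.14 (adjusted p = 0.00267). Its core gene Rpn13 had -0.38, -0.33, -0.08 and 0.11. Rpt4R, a paralogue of an ATPase whose core gene was not measured, had 0.84, 1.19, 0.86 and 0.98 and was called at 0.97 ± 0.14 (adjusted p = 0.0051). Rpn12R, a paralogue of a lid subunit, had 0.59, 0.52 and 0.31 on 3 arrays and was not called (0.43 ± 0.17). Rpt3R had -0.11, -0.36, -1.32 and 0.14 and was not called (-0.41 ± 0.24), and its values overlap those of Rpt3, which were -0.33, -0.24, -0.43 and -0.05. Of 9 paralogues measured beside their core gene, 7 were above it on every array, and the exceptions were Prosalpha6T (3 of 4 arrays) and Rpt3R (2 of 4).

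The 5 core genes called lower belong to both particles. Rpt2, an ATPase of the base, had -0.49, -0.39, -1.08 and -1.39 and a fitted value of -0.84 ± 0.14 (adjusted p = 0.00716). Prosbeta6 had -1.01, -0.59, -0.55 and -0.68 (-0.71 ± 0.14), and Prosalpha3 had -0.54, -0.46, -1.03 and -0.66 (-0.67 ± 0.14). The lid subunit Rpn12 was fitted at -0.54 ± 0.14 and Rpn1 at -0.63 ± 0.14. The 15 other tested core genes were not called, and 13 of the 20 were below 0 on every array. How many of all units keep the same sign on every array was not counted. The highest core gene was Prosalpha5 at 0.07, the only one of the 20 with a fitted value above 0.

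**Figure D2:**
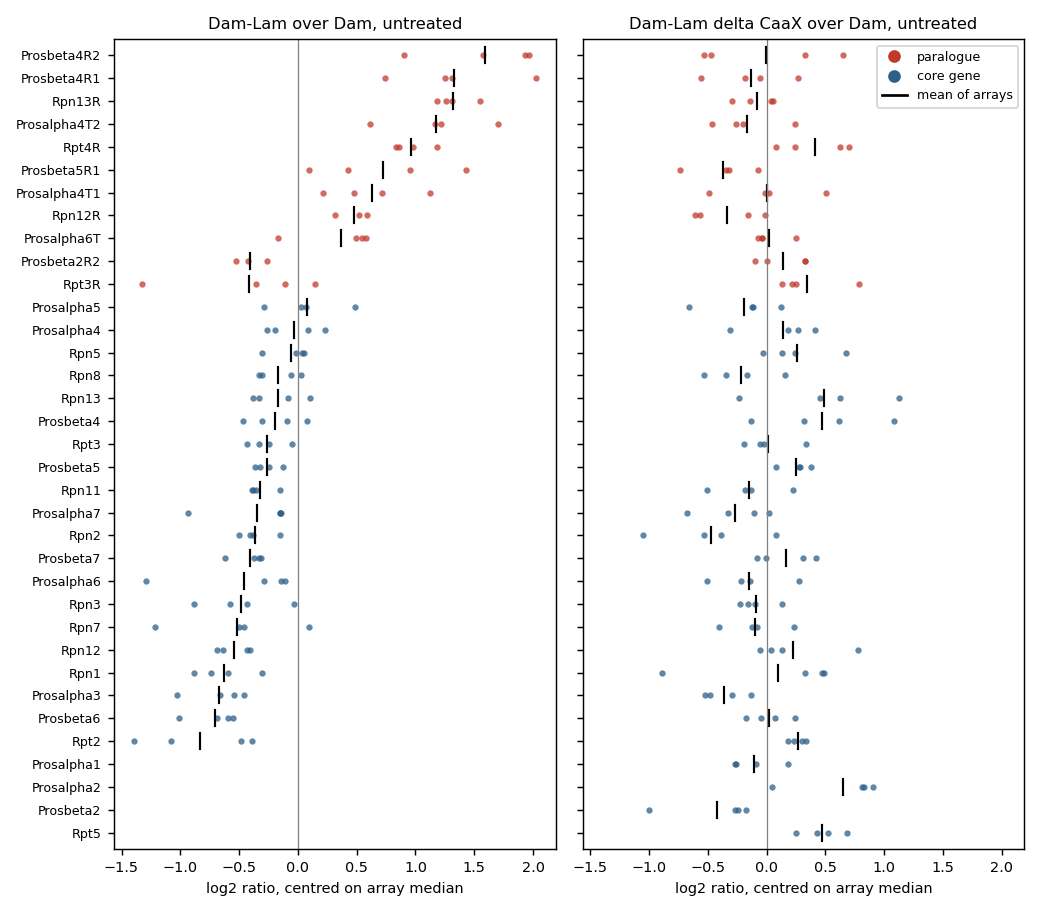
Log2 ratios of each member on the 4 Dam-Lam over Dam arrays (left) and the 4 Dam-Lam delta CaaX over Dam arrays (right) of untreated cells, 1 dot per array and a bar at their mean, sorted by the left panel within paralogues (red) and core genes (blue). With Dam-Lam, 8 of 11 paralogues are above 0 on every array that measured them and 13 of 20 core genes below 0 on every array. The same counts over all units were not made. With Dam-Lam delta CaaX both sets lie around 0.

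The counts of this comparison fell most without array 2907 or 2921, the pair with Dam-Lam in Cy5. Because of the dye term, the residual spread of a unit then comes from arrays 2945 and 2955 alone. On arrays 2945 and 2955 the paralogue median was above the core median by 1.31 and 1.21. Without array 2921, 0 paralogues and 0 core genes were called, and 7 units were higher and 4 lower among all. Without array 2907, 2 paralogues and 0 core genes were called, with 219 units higher and 28 lower. Without array 2945 or 2955 the count rose to 8 paralogues higher, with 1 lower, and to 7 and 9 core genes lower. No counts over all units are set beside these, so the rise cannot be read as particular to the members. The per-array values above hold whichever array is left out of the test.

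The transcript level, the clone library and the neighbouring genes moved with these ratios, and their part in the result was not tested. Of 3560 other genes below the 50th percentile of transcript signal, 32.1% were called higher with Dam-Lam, and 356 were called lower. Of 2799 genes from the 50th to the 90th percentile, 8.79% were higher and 21.4% lower. Of 580 genes above the 90th percentile, 5.17% were higher and 14.1% lower. The 7 paralogues called higher are all among the 9 below the 50th percentile, and Rpt3R and Prosalpha6T, which have the most transcript, are not called. Prosbeta2R2, at the 20.0th percentile, was not called and had a negative ratio. Within the core genes the 5 called lower ranged from Rpn1, the core gene with the least transcript, to Prosbeta6 at the 95.7th percentile.

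**Figure D3:**
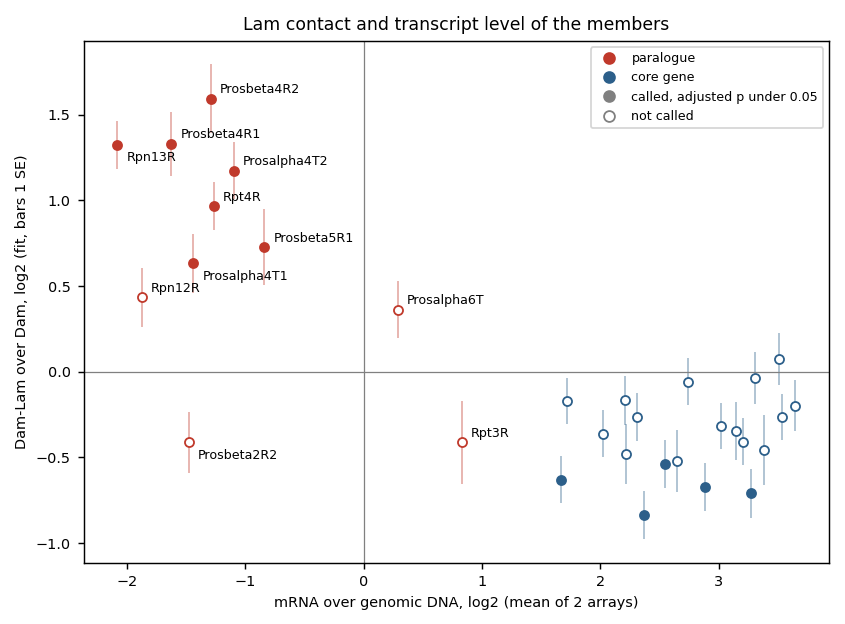
Fitted Dam-Lam over Dam log2 ratio (vertical axis, bars 1 standard error, 4 arrays) against the mRNA over genomic DNA log2 ratio (horizontal axis, mean of 2 arrays) for the 11 paralogues (red, named) and 20 core genes (blue). Filled symbols passed the test at an adjusted p under 0.05. The 7 filled paralogues all lie left of 0 on the transcript axis and above 0.6 on the Lam axis.

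Of the 11 paralogue spots, 10 carry clones of the adult testis library and Prosbeta4R2 a head-library clone, while 2 of 24 core genes are on testis clones alone. Among 671 other genes on testis clones alone, 33.8% were called higher and 8.20% lower, with a median of 0.25. Among 1372 other genes on head-library (GH) clones, 29.2% were higher and 10.6% lower. Clones of the LD library carry core genes such as Prosalpha7 and Prosbeta6. Among 1718 genes on LD clones, 9.37% were higher and 22.4% lower, with a median of -0.18. Among all 6268 other genes not on testis clones alone, the head-library and LD genes included, 19.0% were higher and 15.7% lower. Their median was -0.05. How much sequence paralogue and core spots share was not looked at, and cross-hybridisation between them was not tested.

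The nearest measured gene on each side, within 5 protein-coding genes in the Release 6 order, was looked up for every member. Of 20 neighbours of paralogues that are not members themselves, 11 were called higher with Dam-Lam, 3 lower and 6 neither, with a median of 0.52. Of 48 neighbours of core genes, 1 was higher, 11 lower and 36 neither, with a median of -0.29. Among all units 20.3% were higher and 14.9% lower. The higher neighbour of a core gene was Reck, which is counted among the neighbours of paralogues too. Directly beside a member lay 10 of the 20 and 31 of the 48. Both neighbours were higher for Rpn13R (rg at 2.19 ± 0.19 and CG5062 at 0.94 ± 0.14), Rpt4R (SdhAL at 0.93 ± 0.15 and CG5883 at 1.00 ± 0.14), Prosalpha4T2 (Ssl at 1.26 ± 0.33 and CG13581 at 0.88 ± 0.18) and Rpn12R (Reck at 0.45 ± 0.14 and ind at 1.18 ± 0.16). Both neighbours of Rpt3R were lower, PpD3 at -0.85 ± 0.15 and Alg12 at -0.71 ± 0.17. Prosbeta2R2 lies between cno, which was higher at 0.59 ± 0.13, and CG2604, which was lower at -0.63 ± 0.17. For Prosbeta5R1 the neighbour CG3124 was higher (0.82 ± 0.14) and CG30412 was not called (0.45 ± 0.21). For Prosalpha4T1 the neighbour CG31200 was higher (0.57 ± 0.14) and Syp was not called (0.26 ± 0.15). The outer neighbours of the Prosbeta4R1 and Prosbeta4R2 pair were not called either, CG15395 at 0.48 ± 0.20 and Tmtc1 at -0.40 ± 0.18. Neither measured neighbour of Prosalpha6T was called, CG16812 at -0.00 ± 0.13 and Jhbp13 at 0.18 ± 0.13.

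Other genes of ubiquitin-dependent degradation were read from 4 lists: proteasome regulators and assembly factors, ubiquitin with its activating and conjugating enzymes, p97 with shuttle factors, and the COP9 signalosome, a complex related to the proteasome lid. Of their 28 tested genes, 1 was called higher with Dam-Lam, 3 lower and 24 neither, where 20.3% of all units were higher and 14.9% lower, so neither share of the lists was above that of all units. The higher gene was Uch-L5R, a paralogue of the proteasome-bound deubiquitinase Uch-L5, at 1.19 ± 0.14 (adjusted p = 0.00322). Its transcript signal was -1.53, the 18.6th percentile. Uch-L5 itself was at -0.16 ± 0.14 for Dam-Lam and 1.89 for transcript, the 86.9th percentile. Lower were Plap (-0.97 ± 0.14), CG12321 (-0.75 ± 0.14) and ntc (-0.54 ± 0.15). By median transcript signal the 7 measured ubiquitin genes (3.23) were above the regulators (1.77, 10 genes), the p97 group (1.43, 6 genes) and the COP9 genes (1.06, 5 genes).

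The next comparison asks what is left when Lam lacks its membrane-targeting signal. Paralogues and core genes had about the same median with this protein. With Dam-Lam delta CaaX over Dam, 1 of 11 paralogues was called higher (all units: 16.1% higher) and 0 lower, and 3 of 24 core genes were higher and 1 lower (all units: 16.4% lower). The medians were -0.01 for paralogues, 0.02 for core genes and 0.00 over all 8056 units. On the 4 arrays, the paralogue median differed from the core median by 0.08, 0.02, -0.07 and -0.20.

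The paralogue called higher was Rpt4R, with 0.70, 0.62, 0.25 and 0.08 on the 4 arrays (0.41 ± 0.12, adjusted p = 0.0287). The 4 arrays spread widely for Prosbeta4R2, the paralogue highest with Dam-Lam. It read 0.65, 0.33, -0.54 and -0.48, with a fitted value of -0.01. Rpn13R had 0.05, -0.14, -0.29 and 0.04 (-0.08 ± 0.13). Core genes called higher were Prosalpha2, an alpha-ring subunit not measured with Dam-Lam in this experiment (0.65 ± 0.15), Rpn13 (0.49 ± 0.15) and the ATPase Rpt5 (0.47 ± 0.13). Rpn13 was read from a different spot on these arrays than on those of Dam-Lam. The base scaffold Rpn2 was called lower (-0.47 ± 0.16). Leaving out array 2966 gave 5 core genes higher, beside 1678 of all units, and leaving out array 2968 gave 0, beside 476, against 1298 with all 4 arrays. In the 4 pathway lists 11 of 28 genes were higher and 1 lower.

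The difference between the fusion proteins was tested on the 8 arrays together, although the proteins never share an array. It was higher for 7 of 11 paralogues (all units: 21.1% higher) and lower for 1, and lower for 5 of 20 core genes (all units: 14.1% lower), over 7711 units. By difference the leading paralogues were Prosbeta4R2 (1.60 ± 0.26), Prosbeta4R1 (1.46 ± 0.26), Rpn13R (1.41 ± 0.18), Prosalpha4T2 (1.34 ± 0.22) and Prosbeta5R1 (1.10 ± 0.29). Rpn12R (0.74 ± 0.19) and Rpt4R (0.55 ± 0.18) also passed, and Prosbeta2R2 was lower (-0.59 ± 0.20). The core genes lower were Rpt2 (-1.10 ± 0.22), Rpn12 (-0.76 ± 0.21), Prosbeta6 (-0.73 ± 0.19), Prosbeta7 (-0.57 ± 0.18) and Prosbeta5 (-0.52 ± 0.17). This difference shares its Dam-Lam arrays with the comparison of Dam-Lam with Dam, so its calls are no second measurement.

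The TSA experiment, which shares no array with the untreated comparison, gives a second reading of Dam-Lam. In that experiment 9 paralogues and 20 core genes were measured. Prosalpha4T1 and Rpn12R had no value there, nor had the core genes Prosalpha3, Prosalpha4, Prosalpha6 and Rpn3. Dam-Lam over Dam in cells without TSA is not on any array of it, and was derived from all 10 arrays by a fit that was added after the values were seen. In this derived ratio 5 of 9 paralogues were higher (all units: 20.4% higher) and 2 lower, and 1 of 20 core genes was higher and 5 lower (all units: 13.7% lower), with medians of 0.90 and -0.36. Prosbeta4R1 was at 2.29 ± 0.30, Prosbeta4R2 at 1.57 ± 0.18, Rpn13R at 1.43 ± 0.17, Rpt4R at 1.08 ± 0.17 and Prosalpha4T2 at 0.90 ± 0.20. All 5 had also passed in the untreated arrays. The core gene higher was Prosbeta2 (0.52 ± 0.17). The core genes lower were Rpn11 (-0.85 ± 0.19), Rpn12 (-0.70 ± 0.21), Prosbeta7 (-0.69 ± 0.19), Rpt2 (-0.56 ± 0.20) and Prosalpha1 (-0.54 ± 0.17). Rpt3R (-0.74 ± 0.16) and Prosbeta2R2 (-0.52 ± 0.17), negative but not called there, were called lower here. Prosbeta5R1 was at -0.37 in this fit, the opposite sign of the untreated arrays, and was not called. For this gene the arrays of Dam-Lam with over without TSA, which enter the fit, disagree, with -0.76 on array 3686 and 1.45 on array 3687.

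With TSA in both cultures, Dam-Lam over Dam was still higher for most of these paralogues. On the 2 arrays 5 of 9 paralogues were called higher (all units: 19.5% higher) and 1 lower, and 0 of 20 core genes were higher and 7 lower (all units: 14.6% lower). Prosbeta4R1 had 1.08 and 1.04 and a fitted value of 1.06 ± 0.17. Prosbeta4R2 had 0.98 and 0.59 (0.79 ± 0.11), Rpn13R 0.64 and 0.69 (0.66 ± 0.10) and Rpt4R 0.79 and 0.39 (0.59 ± 0.10). Prosalpha6T was also called, with 0.36 and 0.44 (0.40 ± 0.11). Prosalpha4T2, at 0.31 and 0.29, was not. Prosbeta2R2 was lower, with -0.35 and -0.37. Of the core genes, Prosalpha1 was the lowest at -0.62 ± 0.10, then Prosbeta7 (-0.50 ± 0.11), Prosbeta6 (-0.49 ± 0.14) and Rpn11, the lid deubiquitinase (-0.45 ± 0.11). Rpn2 (-0.40 ± 0.12), Prosalpha2 (-0.39 ± 0.11) and Rpn7 (-0.26 ± 0.09) were the other core genes called. Without array 3688, 2 paralogues were higher and 0 core genes lower, beside 262 units higher and 84 lower in all. Without array 3689 the counts were 3 and 1, beside 361 and 161, against 1379 and 1033 with every array.

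The change of Dam-Lam with TSA was tested after the change of Dam alone was taken off. Prosbeta4R1, Prosbeta4R2, Rpn13R, Prosalpha4T2 and Rpt4R fell, Rpt3R rose, and 19 of 20 core genes did not pass the test. This change and the derived ratio without TSA come from the same 10 arrays and share their values, so a gene high in that ratio tends to fall here by construction. Of 9 paralogues 5 were called lower (all units: 17.6% lower) and 1 higher, and of 20 core genes 0 were lower and 1 higher (all units: 12.4% higher), over 7089 units. The medians were -0.49 for paralogues, 0.12 for core genes and -0.02 for all units. For Prosbeta4R1 the fall was 1.22 on the log2 scale, for Prosbeta4R2 0.78, for Rpn13R 0.77, for Prosalpha4T2 0.60 and for Rpt4R 0.49.

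The 2 arrays that set Dam-Lam with TSA directly beside Dam-Lam without TSA show the size of these changes before the Dam correction. Prosbeta4R2 read -1.11 and -1.10, Prosalpha4T2 -1.06 and -1.17, Rpn13R -1.22 and -0.80, Prosbeta4R1 -0.80 and -1.14, and Rpt4R -0.73 and -0.99. All 10 values were below -0.7. Rpt3R read 1.01 and 0.87, and after correction its change was 0.76 ± 0.13 (adjusted p = 0.00181). Prosbeta2R2 read 0.47 and 0.44 and its corrected change was not called (0.16 ± 0.14). Prosbeta5R1 read -0.76 on array 3686 and 1.45 on array 3687, so its change has no settled sign. Without array 3686 it was called higher at 1.77 ± 0.18, and without array 3687 lower at -0.81 ± 0.18. The core gene called higher was Rpn12, with 0.69 and 0.86 on the direct arrays and a corrected change of 0.49 ± 0.17.

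Without the correction for Dam, 5 paralogues were lower and 2 higher and 8 core genes higher and 3 lower, beside 33.6% of all units lower and 31.9% higher. With arrays scaled to the same spread, 0 of 7089 units were called in the corrected comparison, against 879 higher and 1247 lower unscaled. There Prosbeta4R1 was at -1.21, Rpn13R at -0.54, Prosbeta4R2 at -0.49, Prosalpha4T2 at -0.23, Rpt4R at -0.19 and Rpt3R at 0.57. Their adjusted p lay between 0.219 for Rpt3R and 0.687 for Rpt4R. Leaving out array 3686 gave 3 paralogues lower and 2 higher, beside 497 units lower and 219 higher in all. Of 3027 other genes below the 50th percentile of transcript signal, 24.2% fell with TSA and 9.84% rose, and the part of transcript level in the fall was not tested. Of 18 neighbours of paralogues 7 fell (all units: 17.6% lower), 3 rose (all units: 12.4% higher) and 8 did neither. Their median was -0.29, and rg, next to Rpn13R, fell by 0.82. Of 41 neighbours of core genes 2 fell, 6 rose and 33 did neither, with a median of 0.08. In the 4 pathway lists 4 of 28 genes fell, Sumo (-0.69), alien (-0.59), PI31 (-0.53) and ben (-0.50), and 3 rose, CSN7 (0.70), Plap (0.66) and Ubi-p5E (0.46).

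**Figure D4:**
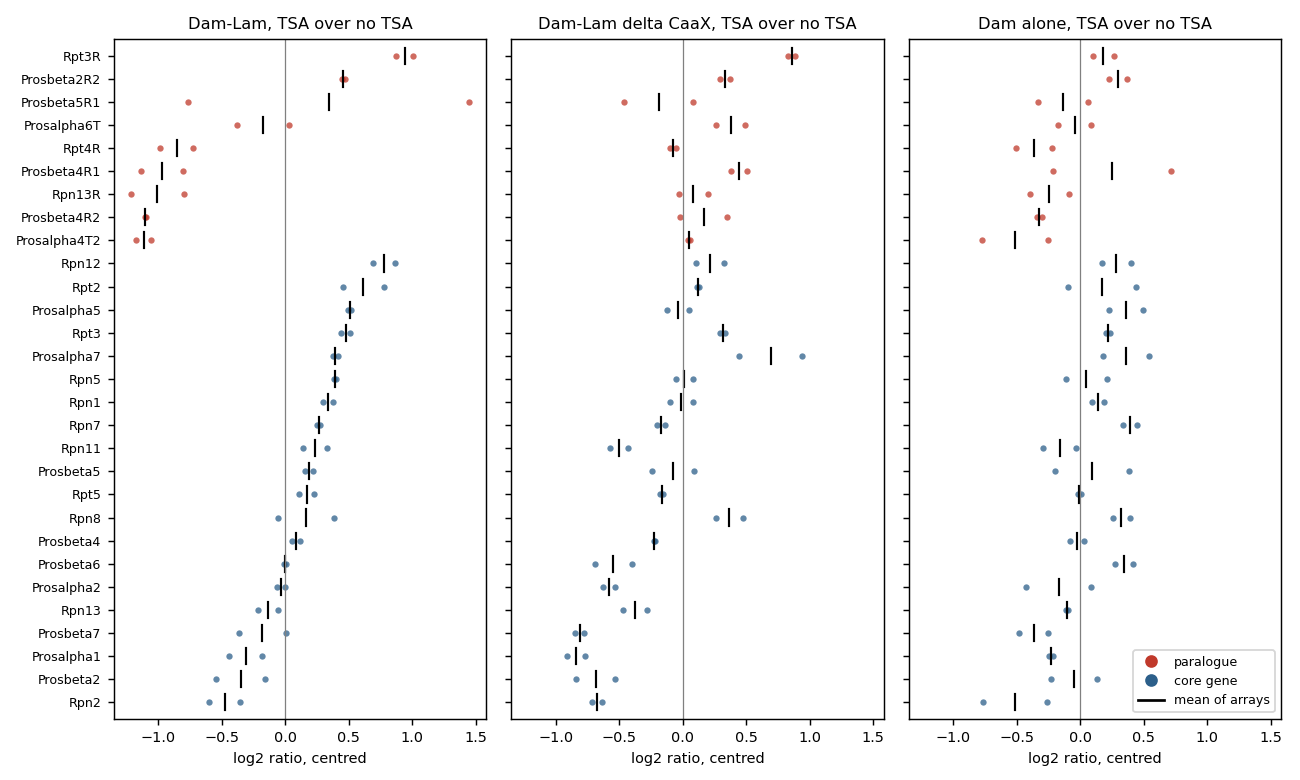
Log2 ratio with over without TSA of each member for Dam-Lam (left), Dam-Lam delta CaaX (middle) and Dam alone (right), 1 dot per array (2 arrays each) and a bar at their mean, sorted by the left panel within paralogues (red) and core genes (blue). In the left panel 5 paralogues lie below -0.7 on both arrays, and in the middle panel those 5 lie between -0.10 and 0.50.

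TSA moved Dam-Lam delta CaaX differently. After correction for Dam, 3 of 9 paralogues were called higher (all units: 16.2% higher) and 0 lower, and 5 of 20 core genes lower (all units: 20.4% lower) and 0 higher. Higher were Rpt3R (0.68 ± 0.13), Prosalpha4T2 (0.56 ± 0.16) and Prosbeta4R2 (0.49 ± 0.15). On the direct arrays Rpt3R read 0.83 and 0.89, while Prosalpha4T2 read 0.04 and 0.05 and Prosbeta4R2 0.35 and -0.02, so for these 2 genes most of the corrected change is the fall of Dam alone. Lower were the core genes Prosbeta6 (-0.89 ± 0.20), Prosbeta2 (-0.64 ± 0.14), Prosalpha1 (-0.61 ± 0.14), Rpn7 (-0.56 ± 0.13) and Prosbeta7 (-0.45 ± 0.15). Uncorrected, 4 paralogues and 3 core genes were higher and 8 core genes lower, beside 27.8% and 29.2% of all units. In TSA-treated cells Dam-Lam delta CaaX over Dam was higher for 1 paralogue, Rpt3R at 0.53 ± 0.09 (all units: 5.29% higher), and lower for 1, Prosbeta2R2 at -0.36 ± 0.10 (all units: 7.19% lower). It was higher for 3 core genes, Prosalpha7, Rpt5 and Prosbeta2, and lower for 2, Prosalpha1 and Rpn11.

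The change of Dam-Lam minus the change of Dam-Lam delta CaaX, a test added after the values were seen, was lower for 6 of 9 paralogues (all units: 19.1% lower) and higher for 0. It was higher for 10 of 20 core genes (all units: 18.9% higher) and lower for 0. The median of all units in this difference was 0.09. Prosbeta4R1 was at -1.41 ± 0.24, Prosbeta4R2 at -1.27 ± 0.15, Prosalpha4T2 at -1.16 ± 0.16, Rpn13R at -1.09 ± 0.14, Rpt4R at -0.78 ± 0.14 and Prosalpha6T at -0.55 ± 0.16. Rpt3R rose with both fusion proteins and was not called in this difference.

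Dam alone reads how open DNA is to the enzyme, and TSA shifted it for some members. Of 9 paralogues 3 were called lower (all units: 16.0% lower) and 1 higher, and of 20 core genes 4 were higher (all units: 15.6% higher) and 2 lower. Lower were Prosalpha4T2 (-0.51 ± 0.11, with -0.77 and -0.25 on the 2 arrays), Rpt4R (-0.37 ± 0.10) and Prosbeta4R2 (-0.32 ± 0.11), and Prosbeta2R2 was higher (0.30 ± 0.10). The core genes higher were Rpn7 (0.39 ± 0.09), Prosalpha7 (0.36 ± 0.10), Prosalpha5 (0.36 ± 0.12) and Rpn8 (0.32 ± 0.11), and those lower were Rpn2 (-0.51 ± 0.12) and Prosbeta7 (-0.37 ± 0.11). Without array 3690, 0 members were called, beside 356 units higher and 546 lower in all, against 1107 and 1135 with every array.

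In the ecdysone experiment the 6 Dam-Lam over Dam arrays do not share a direction. On arrays 3436 and 3442 with ecdysone and 3434 without it, the paralogue median was above the core median by 1.36, 0.78 and 1.24. On arrays 3428 with ecdysone and 3441 and 3443 without it, the difference was -0.77, -1.48 and -1.74. If those 3 arrays are turned in sign, the differences become 0.77, 1.48 and 1.74, and if the first 3 are turned, they become -1.36, -0.78 and -1.24. Against the untreated Dam-Lam arrays, the first 3 correlate at 0.41 to 0.77 and the last 3 at -0.73 to -0.44. Prosbeta4R2 shows the pattern: with ecdysone it read 1.64 and 1.93 on arrays 3436 and 3442 and -1.12 on array 3428, and without ecdysone 2.36 on array 3434 and -1.70 and -1.89 on arrays 3441 and 3443. Each set of 3 holds 2 arrays with the fusion in Cy3 and 1 with it in Cy5, per the labels, so the dye does not separate them and the direction is not settled.

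**Figure D5:**
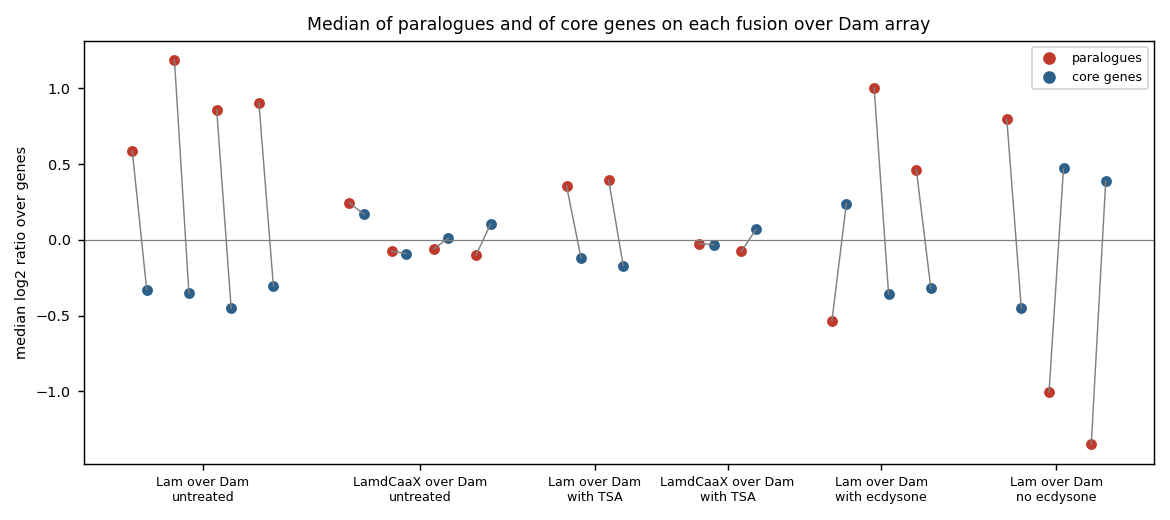
Median log2 ratio over the paralogues (red) and over the core genes (blue) on each array of a fusion protein over Dam, joined per array, for 6 groups of arrays. The paralogue median is above the core median on all 4 untreated and both TSA arrays of Dam-Lam and on 3 of the 6 arrays of the ecdysone experiment, and below it on the other 3 of that experiment. In the Lam delta CaaX groups the medians differ by at most 0.20.

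No member passed the test for a change with ecdysone. The change of Dam was called by limma for 0 of 7089 units (0% higher, 0% lower), with 83 at an unadjusted p under 0.05, 1 paralogue and 1 core gene among them. The change of Dam-Lam minus Dam was called for 0 units, with 247 at an unadjusted p under 0.05, 1 paralogue and 0 core genes among them. It was also 0 with the 3 opposed arrays turned, or with the Cy3 arrays turned. The 2 arrays of Dam-Lam with over without ecdysone correlated at 0.02, and the 2 of Dam at 0.06. With 0 units called, these DamID tests do not show that the members are unchanged. For mRNA, ecdysone changed 2.17% of all units upward and 1.61% downward, and limma called 0 of 9 paralogues and 0 of 20 core genes. At an unadjusted p under 0.05 there were 0 paralogues, 1 core gene and 1049 units in all. The median change was -0.03 for paralogues, -0.05 for core genes and 0.01 for all units. The members' fitted changes ranged from -0.41 to 0.34. Rpt3R, the paralogue with the most transcript, had the widest range of the 29 members, with -0.44, 0.10, -1.31, -1.77 and 0.78 on the 5 arrays. Without array 3427, which correlates at -0.14 with array 3426, it was called lower at -0.69 ± 0.17. The values left were -0.44 and 0.78 with the ecdysone sample in Cy5 and -1.31 and -1.77 with it in Cy3. They still hold both signs, and no count over all units is set beside this call.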

How the data were processed

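Each array gave 1 log2 ratio per spot, which the authors deposited already processed. The submitters' processing notes name limma, with no version. The log base was taken as 2, and the direction as channel 1 over channel 2. How background was corrected and arrays were normalized is not given in the sources used here. The ratios carry no counts, so the number of arrays limits the precision. Rows were named through the platform annotation (7843 of 9006 rows name 1 gene) and matched to Release 6 names, with 7135 genes matched. Values were centred on the array median, rows of a gene averaged, and each unit fitted with limma 3.58.1 in R 4.3.3 (lmFit and eBayes, with a gene-wise dye term) if a share of 0.75 or more of its arrays held a value. P-values were adjusted by the Benjamini-Hochberg method over all units and called below 0.05. The 10 arrays of the TSA experiment share 1 model, as do the 10 DamID arrays of the ecdysone experiment. The code was tested on simulated data. The text names the paralogues, their core genes and the members called in each comparison, and up to 4 called genes per pathway list where it names any. Under alternatives, calls are given as counts. Members and lists were chosen with earlier results of these data known. Alternatives were no centring, no dye term, rows tested singly, units with values on every array only, arrays scaled to the same spread, robust eBayes and leaving out each array. No sequences were used.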

Additional observations from a re-analysis of the deposited data

Results flagged for a closer look

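Among 93 sets of 4 or 5 values of a member on the arrays of 1 group, 8 held a highest or lowest value whose gap to the nearest other was large for the range of the set (Dixon's test), which chance gives for about 1 in 20 sets. Members on 1 array are not independent of each other. With Dam-Lam over Dam, array 2945 stood apart for Prosalpha6 (-1.29), Prosalpha7 (-0.93) and Rpn11 (-0.15), and array 2955 for Prosalpha6T (-0.17). With Dam-Lam delta CaaX over Dam, array 2966 stood apart for Prosalpha2 (0.042), Prosbeta2 (-0.998) and Rpn1 (-0.89), and array 2962 for Prosalpha6T (0.25).

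For 16 members the TSA change of Dam-Lam differed from that of Dam-Lam delta CaaX by the limma test of the difference itself, in which 18.9% of all units were higher and 19.1% lower. The difference was negative for the paralogues Prosbeta4R1 (-1.41), Prosbeta4R2 (-1.27), Prosalpha4T2 (-1.16), Rpn13R (-1.09), Rpt4R (-0.78) and Prosalpha6T (-0.55). It was positive for core genes of the 20S rings, Prosbeta7 (0.63), Prosalpha2 (0.55), Prosbeta6 (0.55), Prosalpha5 (0.54) and Prosalpha1 (0.53). It was also positive for core genes of the regulatory particle, Rpn11 (0.74), Rpn12 (0.56), Rpt2 (0.50), Rpn7 (0.43) and Rpn5 (0.38).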

How the results depend on the processing

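No paired analysis was possible because each array number belongs to 1 group only. Counts of called members depended most on single arrays. Counts over all units also changed where they are given above. They are not set beside the ranges that follow, so these ranges cannot be read as particular to the members. Leaving out each array in turn, Dam-Lam over Dam gave 0 to 9 core genes lower, 0 to 8 paralogues higher and 0 to 1 lower. Dam-Lam delta CaaX over Dam gave 0 to 5 core genes higher, 0 to 2 lower, 0 to 1 paralogues higher and 0 to 2 lower. The difference of the proteins gave 3 to 5 core genes and 0 to 1 paralogues lower. The TSA change of Dam gave 0 to 5 core genes higher, 0 to 3 lower, 0 to 1 paralogues higher and 0 to 3 lower. That of Dam-Lam minus Dam gave 0 to 2 core genes higher, 1 to 2 paralogues higher and 3 to 5 lower. That of Dam-Lam delta CaaX minus Dam gave 2 to 7 core genes lower and 1 to 3 paralogues higher. With TSA, Dam-Lam over Dam gave 0 to 7 core genes lower, 2 to 6 paralogues higher and 0 to 1 lower, and Dam-Lam delta CaaX over Dam 0 to 4 core genes higher, 0 to 4 lower, 0 to 1 paralogues higher and 0 to 1 lower. Ecdysone mRNA gave 0 to 1 paralogues lower.

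Without the dye term, Dam-Lam delta CaaX over Dam gave 0 core genes lower and 0 paralogues higher, and the difference of the proteins 0 paralogues lower, as it did with a value on every array. The TSA change of Dam then gave 1 core gene higher (2 without centring), 0 paralogues higher and 1 lower, that of Dam-Lam minus Dam 0 core genes higher, and Dam-Lam delta CaaX over Dam with TSA 0 core genes higher, 1 lower and 0 paralogues lower. With arrays scaled to the same spread, Dam-Lam delta CaaX over Dam gave 1 paralogue lower, the TSA change of Dam 0 paralogues higher, that of Dam-Lam minus Dam 0 core genes higher, 0 paralogues higher and 0 lower, that of Dam-Lam delta CaaX minus Dam 1 core gene lower and 0 paralogues higher, and Dam-Lam delta CaaX over Dam with TSA 5 core genes lower. Not corrected for Dam, the TSA change of Dam-Lam gave 8 core genes higher, 3 lower and 2 paralogues higher, and that of Dam-Lam delta CaaX 3 core genes higher and 8 lower. Minus the change of Dam-Lam delta CaaX it gave 10 core genes and 0 paralogues higher. Derived in the TSA experiment, Dam-Lam over Dam gave 1 core gene higher and 2 paralogues lower. There Prosbeta5R1 had the opposite sign at -0.37 and was not called. The causes were not tested. Averaging of rows and robust eBayes moved no call of the 82 gene results. The 82 hold the called members of each comparison. They also hold every paralogue, called or not, in Dam-Lam over Dam and in the TSA change of Dam-Lam minus Dam. Results not called had no call to lose, so the share of calls lost is larger than a base of 82 gives. Without the dye term 20 results lost their call, with arrays scaled to the same spread 17 and without centring 3. When the array whose loss brought a value nearest to 0 was left out, 50 results lost their call.

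Over all units, scaling gave 274 higher and 422 lower for the TSA change of Dam-Lam delta CaaX minus Dam, against 1146 and 1443, and 955 and 1035 for its ratio to Dam with TSA, against 375 and 510. That ratio had 160 and 280 without the dye term.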
